A study of Homo sapiens with 15 samples.

Results

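The genes described here are 141 long non-coding RNA (lncRNA) genes that were silent in untreated K562 cells and were transcribed after treatment with the histone deacetylase (HDAC) inhibitor martinostat. A gene was included when the GENCODE annotation called it an lncRNA, when its counts summed to at most 3 over the 3 untreated libraries, and when its mean over the 3 libraries at 1 µM was at least 1 CPM (counts scaled to the library total, per 1000000 counts). Of 60649 genes in the count table, 16780 were lncRNA genes and 10875 of these had at most 3 untreated counts, so 1.30% of the silent lncRNA genes were included. MIR7-3HG was set aside by the rule. The untreated and 1 µM libraries chose the genes, and their values are therefore given as a description. Tests were made on the 9 libraries at 0.15, 0.25 and 0.5 µM, which the rule did not use. A gene chosen for being silent without drug and present at the top dose will tend to be higher at the middle doses too, so protein-coding genes chosen by the same thresholds (632 of the 5313 coding genes with at most 3 untreated counts) are given for comparison.

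K562 is an established human chronic myeloid leukaemia line that carries the BCR-ABL fusion, and GEO's labels give its tissue as bone marrow. Poly(A) RNA was sequenced from untreated cells and from cells given martinostat for 24 h at 0.15, 0.25, 0.5 or 1 µM, with 3 libraries labelled as biological replicates in each of the 5 groups. All groups were cells of this 1 line, and the labels name no solvent control.

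HDACs remove acetyl groups from histone tails, and inhibitors of these enzymes leave chromatin more acetylated, which is known to permit transcription from promoters that are otherwise inactive. An lncRNA is a spliced or unspliced transcript without a recognised protein product. Many lncRNAs start at the promoter of a coding gene in the opposite direction, lie antisense to a coding gene, or start from repeated elements between genes, and most have no described function.

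The stretches of genome around the annotated starts of some of these genes fell into recognisable types, while those of 83 of the 141 fell into none. Each start window was the hg38 sequence from 250 bases before to 50 bases after the start given by GENCODE 44, 300 bases in all, on the strand of the gene. One is printed, 5′ to 3′, because it shows the CpG-rich type described below: that of ENSG00000226954, the gene with the highest level at 1 µM among those whose window was CpG-rich and clear of coding exons. Capitals mark CG dinucleotides.
ENSG00000226954 chr22:49724457-49724756 strand minus: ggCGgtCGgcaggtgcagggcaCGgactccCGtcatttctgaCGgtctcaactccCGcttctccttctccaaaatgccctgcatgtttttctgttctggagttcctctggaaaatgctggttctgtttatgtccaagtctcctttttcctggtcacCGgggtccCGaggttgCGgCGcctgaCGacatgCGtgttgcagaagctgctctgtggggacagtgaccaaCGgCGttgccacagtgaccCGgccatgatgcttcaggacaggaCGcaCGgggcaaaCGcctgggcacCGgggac

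This window has 59.3% G and C and 19 CG dinucleotides. It has no CCAAT, the letters of the CCAAT box, on its strand. It also lacks the GC box, GGGCGG or its complement, which 74.4% of the CpG-rich windows have. A second type repeats CCAAT and was found by comparing windows with each other after the values had been seen, so what follows about it is a description.

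The libraries held between 23755510 and 32805574 counts, and at 1 µM a level of 1 CPM stood for 27.6 to 28.4 counts. At 0.25 and at 0.5 µM, replicate 3 stood apart on the third principal component (3.97% of the variance), with scores of 51.8 and 60.7 against 12.9 or lower elsewhere. These 2 libraries also stood apart from their groups on the second component (17.7% of the variance). Scores there were -74.1 against -52.3 and -47.5 at 0.25 µM, and 21.5 against 64.7 and 60.7 at 0.5 µM. The trimmed mean of M values (TMM) factors of these 2 libraries were 1.28 and 1.22, and results are also given without them where they changed. The factors were 0.784 to 0.828 in the untreated libraries and 1.02 to 1.03 at 1 µM. CPM in this report are not scaled by these factors, so differences in CPM from untreated cells would change with such scaling. The label of the cells was checked with 9 genes of K562 cells, whose summed level was 982 to 2541 CPM per library. BCR had a mean of 355 CPM without drug and of 329 CPM at 1 µM, while the erythroid regulator GATA1 went from 262 to 19.3 CPM. Summed over 3 genes each, markers of T cells ran from 1.88 to 22.3 CPM per library, of B cells from 1.80 to 9.19, of macrophages from 0.305 to 32.4, of neurons from 1.83 to 11.0, of fibroblasts from 18.0 to 498 and of epithelial cells from 646 to 4992. The high fibroblast and epithelial sums came from COL1A1 and KRT8, which went from 3.50 to 407 CPM and from 558 to 3315 CPM between untreated cells and 1 µM. Over the same span COL1A2 fell from 15.1 to 9.92 CPM and EPCAM from 113 to 21.0 CPM. DCN and CDH1 were at most 2.02 CPM in any group mean. Whether such changes bear on the lncRNA levels was not tested. In bulk RNA more cells with a transcript and more transcript per cell cannot be told apart.

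The 141 genes were mostly undescribed. In untreated cells 94 had 0 counts, 6 had 1, 29 had 2 and 12 had 3. A symbol was available for 63, and 78 are known by identifier alone. They had a median of 3 exons and 1963 exon bases, and 20 had a single exon. Their median mean level at 1 µM was 1.78 CPM, or 1.10 CPM per kilobase of exon. For the coding genes chosen by the same thresholds the medians were 2.37 CPM, 0.607 CPM per kilobase and 4454.5 exon bases. Both sets were cut at 1 CPM without regard to length, so shorter genes tend to come out higher per kilobase. All coding genes with at least 1 CPM at that dose (13423 genes) had a median of 4.69 CPM per kilobase. The genes lay on 23 chromosomes, most often on chromosomes 17 (13 genes), 4 and 6 (12 each), and 18 of them shared 9 loci with another of the group at a gap of at most 50 kb, which left 132 separate loci.

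The thresholds cut through a continuous range. Just inside the limit at 1 µM were TNRC6B-DT with 1.01 ± 0.191 CPM and LINC02848 with 1.02 ± 0.519 CPM (SD, n = 3), and just outside were RGMB-AS1 with 0.979 ± 0.285 and ENSG00000286886 with 0.975 ± 0.208 CPM. At the limit of untreated counts, PAPLN-AS1 and RUNDC3A-AS1 were inside with 3 counts, while LINC01511 (44.9 ± 6.37 CPM at 1 µM) and HCP5 (8.55 ± 0.417 CPM) were outside with 4.

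Most of the gain in summed level of the lncRNA genes fell between 0.15 and 0.5 µM. At 0.15 µM 128 of them already had more than 3 counts over the group, and 4 had 0. Their summed level was 84.3, 72.2 and 81.0 CPM in the libraries at 0.15 µM, 182, 158 and 221 CPM at 0.25 µM, 363, 365 and 528 CPM at 0.5 µM, and 393, 402 and 393 CPM at 1 µM, against 0.945 to 1.14 CPM in untreated libraries. Neighbouring doses did not overlap up to 0.5 µM, the third libraries at 0.25 and 0.5 µM were the highest of their groups, and the values at 1 µM lay below replicate 3 and above both other libraries at 0.5 µM. The mean was at least 1 CPM in 22 genes (15.6%) at 0.15 µM, in 65 (46.1%) at 0.25 µM and in 124 (87.9%) at 0.5 µM, and the median of the means was 0.318, 0.911, 1.86 and 1.78 CPM from the lowest to the highest dose. The highest mean was at 0.5 µM in 67 genes, at 1 µM in 57, at 0.25 µM in 16 and at 0.15 µM in 1. This order rested on replicate 3 at 0.25 and 0.5 µM, without which 76 genes had their highest mean at 1 µM, 45 at the dose below and 19 at 0.25 µM. The median ratio of the 1 µM mean to the 0.5 µM mean was 0.988, and 1.11 without these 2 libraries.

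**Figure D1:**
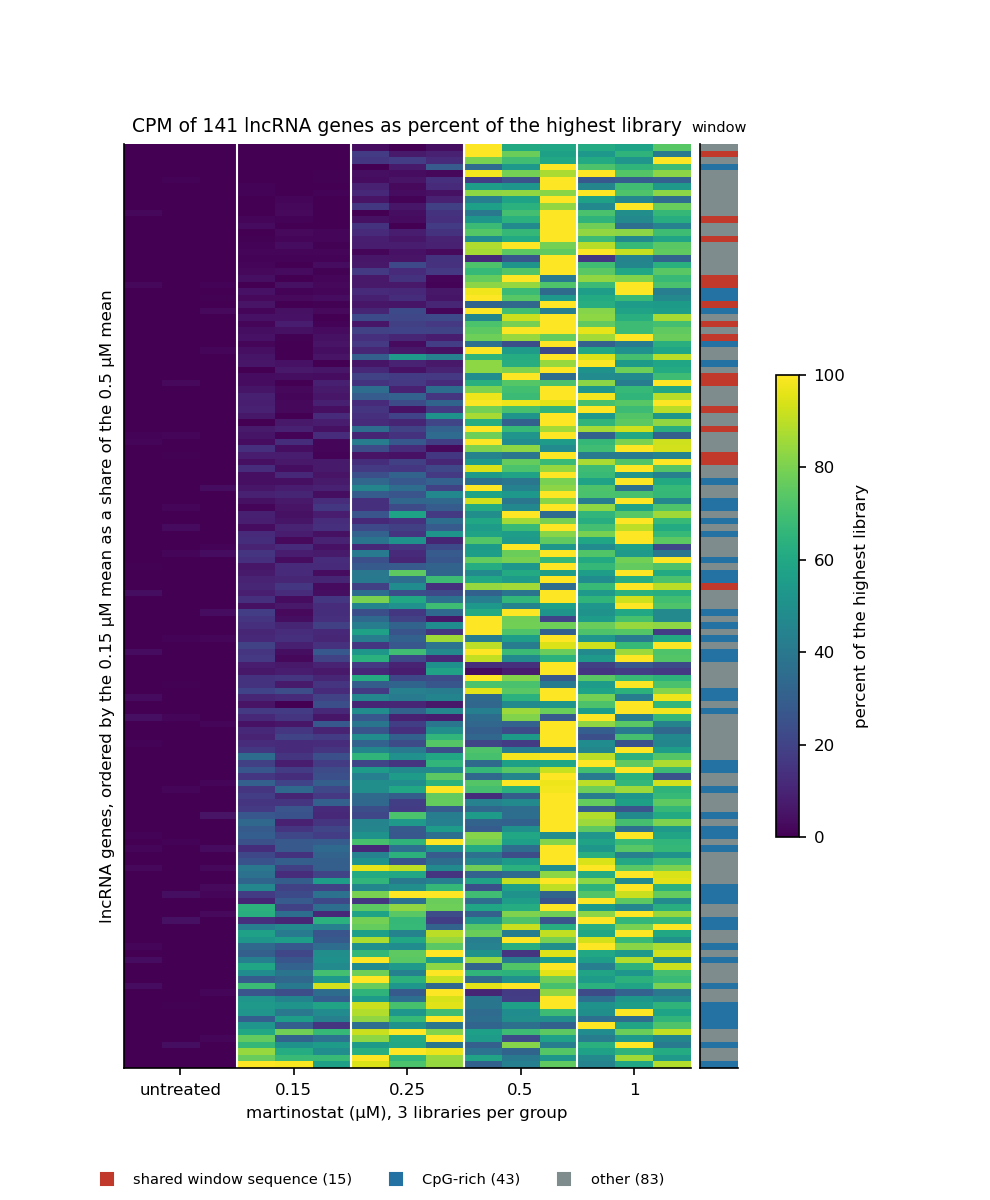
CPM of the 141 lncRNA genes in each of the 15 libraries as a percentage of the highest library of that gene, with libraries grouped by dose (µM) along the horizontal axis, 1 gene per line ordered by the share of the 0.5 µM level reached at 0.15 µM, and a side bar for the type of start window (red, CCAAT-repeating; blue, CpG-rich; grey, other). The untreated libraries are nearly empty, genes at the top are dark up to 0.25 µM, and the third library at 0.5 µM is the brightest of its group in 83 genes.

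Tests between the doses were made with the quasi-likelihood test of edgeR and Benjamini-Hochberg adjustment over all 22583 genes tested, and all 141 lncRNA genes passed its filter on low counts. From 0.15 to 0.25 µM 33 of the lncRNA genes (23.4%) rose and none fell, where 3.29% of all genes tested rose and 3.21% fell. The 632 coding genes chosen by the same thresholds gave nearly the same share in this step, with 146 higher (23.1%) and none lower. From 0.25 to 0.5 µM 63 (44.7%) rose and none fell (all genes 12.2% and 14.1%, those coding genes 30.9% and 3.80%), and over the whole span from 0.15 to 0.5 µM 106 (75.2%) rose and none fell (all genes 21.5% and 21.0%). The number lower was 0 in each comparison also at an unadjusted p under 0.05 and by DESeq2. The genes were low at the starting doses, with a median of the means of 0.318 CPM at 0.15 µM and 0.911 CPM at 0.25 µM. At 0.15 µM 4 had 0 counts. A fall could therefore hardly be called in many of them, and the lack of lower genes follows in large part from how they were chosen. At an adjusted p under 0.05 the same 632 coding genes gave 428 higher (67.7%) and 17 lower genes over the whole span, while the 4450 other lncRNA genes tested gave 648 higher and 688 lower. The median log2 fold change from 0.15 to 0.5 µM was 2.67 for the lncRNA genes, 1.68 for those coding genes and 0.06 for all genes. The count from 0.15 to 0.25 µM depended on single libraries: it was 6, 12 or 10 without replicate 1, 2 or 3 at 0.15 µM, 16, 13 or 21 without replicate 1, 2 or 3 at 0.25 µM and 21 without replicate 2 at 0.5 µM. Without replicate 3 at 0.25 and at 0.5 µM, the counts of higher genes were 47, 63 and 102, and 1 gene was lower in each of the last 2 comparisons.

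The genes were not switched on in step. Of the 106 that rose over the whole span, 23 rose in both single steps, 10 only in the first, 40 only in the second and 33 in neither. The remaining 35 were called in none of the 3 comparisons, and 29 of them had a log2 fold change above 0. At 0.15 µM the mean level was a median of 15.8% of the level at 0.5 µM (quartiles 5.54% and 36.4%), against 31.6% for the coding genes chosen by the same thresholds. It was under 10% in 52 lncRNA genes and 89 coding genes, at least 50% in 27 and 192, and above the 0.5 µM level in 6 lncRNA genes. No test compared the lncRNA with the coding genes.

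The gene with the highest level at 1 µM was ENSG00000286176, which lies antisense to WFS1 (chr4:6292369-6308636, minus strand) and has a CCAAT-repeating window. WFS1 encodes wolframin, a membrane protein of the endoplasmic reticulum. ENSG00000286176 had 0 untreated counts, 0.294, 0.518 and 0.711 CPM at 0.15 µM, 3.56, 2.59 and 4.11 CPM at 0.25 µM, 20.4, 25.5 and 41.8 CPM at 0.5 µM and 28.7, 20.1 and 24.4 CPM at 1 µM. Every library at one of the 3 lower doses was above every library at the dose before it, and the 0.5 and 1 µM libraries overlapped. It rose from 0.15 to 0.25 µM by a log2 fold change of 2.59 (SE 0.33, adjusted p 0.00241) and from 0.25 to 0.5 µM by 3.23 (SE 0.29, adjusted p 1.58e-05) in the edgeR quasi-likelihood test, Benjamini-Hochberg adjusted. At 1 µM it was at least 772-fold above untreated cells, taking 3 counts over the untreated group as the floor. WFS1 went from 0.341 ± 0.119 CPM without drug to 23.6 ± 5.03, 67.0 ± 5.52 and 91.7 ± 6.05 CPM at the 3 lower doses in turn (SD, n = 3). At 0.15 µM its antisense gene was under 1 CPM. Whether either gene affects the other was not tested.

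**Figure D2:**
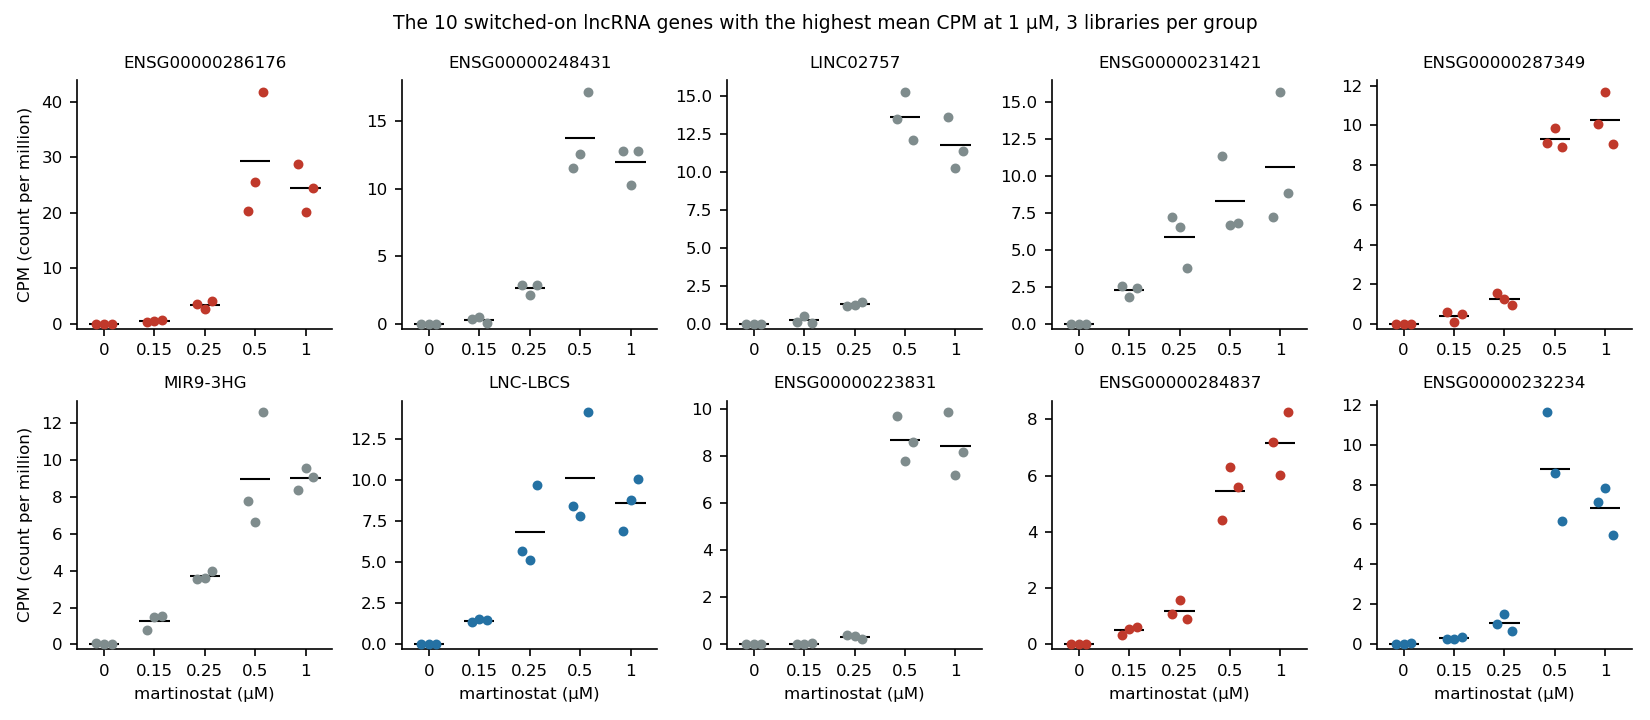
Level in each library (CPM, vertical axis) of the 10 lncRNA genes with the highest mean at 1 µM against martinostat dose (µM), with points for the 3 libraries, bars for their mean and colour by start window (red, CCAAT-repeating; blue, CpG-rich; grey, other). ENSG00000286176 goes from a mean of 0.508 CPM at 0.15 µM to 29.2 CPM at 0.5 µM and 24.4 CPM at 1 µM.

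ENSG00000248431 and LINC02757, the next in level, showed the same course. ENSG00000248431 lies between genes (chr4:162705359-162907428, plus strand), 202645 bases from NAF1, an assembly factor of H/ACA ribonucleoproteins. It had 0.368, 0.518 and 0.0677 CPM at 0.15 µM, 2.89, 2.14 and 2.86 CPM at 0.25 µM, 11.5, 12.6 and 17.2 CPM at 0.5 µM and 12.8, 10.3 and 12.8 CPM at 1 µM, with no overlap between the 3 lower doses. Its log2 fold change from 0.15 to 0.5 µM was 5.47 (SE 0.42, adjusted p 1.94e-06, the edgeR quasi-likelihood test, Benjamini-Hochberg adjusted), while NAF1 fell by 0.97 (SE 0.17, adjusted p 0.000593) in that test. LINC02757 (chr11:76607853-76630465, minus strand) lies 27059 bases from LRRC32, whose product GARP presents latent TGF-beta on regulatory T cells. LINC02757 had 0.147, 0.518 and 0.0677 CPM at 0.15 µM, 1.20, 1.22 and 1.41 CPM at 0.25 µM and 13.5, 15.3 and 12.1 CPM at 0.5 µM. LRRC32 rose with it, from 9.33 ± 1.45 to 25.9 ± 5.59 CPM between 0.15 and 0.5 µM (SD, n = 3), having been at 0.364 ± 0.164 CPM without drug.

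Few of the genes were on a list of well described lncRNAs. Of the 48 listed lncRNAs in the table, 21 had at most 3 untreated counts. MIR7-3HG, set aside by the rule, was also on this list and met both thresholds. The only 1 of the 48 that belonged to the group was MIR9-3HG (chr15:89361579-89424983, plus strand), the host transcript of a microRNA hairpin best known from neural progenitors. It had 0.772, 1.48 and 1.52 CPM at 0.15 µM, 3.56, 3.62 and 4.01 CPM at 0.25 µM, 7.79, 6.63 and 12.6 CPM at 0.5 µM and 8.41, 9.60 and 9.08 CPM at 1 µM. Each of the 3 lower doses lay above the one before in every library. It changed by 1.43 (SE 0.30, adjusted p 0.0187) and then by 1.40 (SE 0.28, adjusted p 0.00353) on the log2 scale in edgeR, Benjamini-Hochberg adjusted. The poly(A) transcript says nothing of the level of the mature microRNA, which was not measured. Of the 33 described lncRNAs tested, 10 were higher and 6 lower from 0.15 to 0.5 µM with a median log2 fold change of 0.33, where 16.4% of all lncRNA genes tested were higher and 15.0% lower. Of the 11 genes of the HDAC family, 5 were higher and 2 lower over that span with a median of 0.24 (all genes 21.5% and 21.0%), among them HDAC7, from 104 to 15.1 CPM, and HDAC5, from 73.5 to 139 CPM.

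LNC-LBCS made its larger step earlier. It runs antisense into ID4, an inhibitor of helix-loop-helix transcription factors, over chr6:19323428-19839080 on the minus strand. It had 1.36, 1.52 and 1.46 CPM at 0.15 µM, 5.70, 5.11 and 9.70 CPM at 0.25 µM, 8.42, 7.82 and 14.1 CPM at 0.5 µM and 6.88, 8.79 and 10.0 CPM at 1 µM. The first step passed the test and the second did not (2.09, SE 0.27, adjusted p 0.00242, against 0.72, SE 0.25, adjusted p 0.0515, for the second, the edgeR quasi-likelihood test, Benjamini-Hochberg adjusted), and the 0.25 and 0.5 µM libraries overlapped. Same-numbered libraries deviated together between these doses, and each of the 3 same-numbered pairs rose. With the replicate number as a block the second step passed as well (0.73, SE 0.21, adjusted p 0.0236, same test). The labels do not state a pairing, so the call of the second step depends on whether one is assumed. The block also covers the 0.15 µM libraries, which showed no such likeness. ID4 stayed at 0.272 CPM or less in the mean of every group and was not tested. ENSG00000231421, an intergenic gene on chromosome 17, rose over the whole span (1.92, SE 0.36, adjusted p 0.00115, same test) but in neither single step. Its libraries spread from 3.79 to 7.24 CPM at 0.25 µM and from 6.71 to 11.4 CPM at 0.5 µM.

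The 4 highest fitted log2 fold changes from 0.15 to 0.5 µM were in genes that were nearly or wholly absent at 0.15 µM, and for a gene at 0 counts the fitted value depends on a prior count and is no bound. ENSG00000223831 (chr22:30598309-30606687, plus strand, 249 exon bases) had 2 counts over the 3 libraries at 0.15 µM, 27 at 0.25 µM and 685 at 0.5 µM. Its levels were 0.413, 0.343 and 0.225 CPM at 0.25 µM, 9.68, 7.78 and 8.60 CPM at 0.5 µM and 9.86, 7.21 and 8.15 CPM at 1 µM. Its ratio from 0.15 to 0.5 µM was 363 with a 95% counting interval of 100.1 to 3002, and the rise from 0.25 to 0.5 µM was 4.89 on the log2 scale (SE 0.43, adjusted p 1.49e-05, the edgeR quasi-likelihood test, Benjamini-Hochberg adjusted). It lies antisense to PES1, a ribosome biogenesis factor that went from 316 ± 4.46 CPM without drug to 177 ± 27.2, 101 ± 20.6, 59.4 ± 13.1 and 66.4 ± 3.63 CPM (SD, n = 3), with a log2 fold change of -1.52 (SE 0.28, adjusted p 0.000913) from 0.15 to 0.5 µM. Most of the decrease of PES1 was reached at 0.25 µM, where its antisense gene was under 1 CPM. An effect of either gene on the other was not tested.

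ENSG00000258435, TM4SF18-AS1 and ENSG00000214719 had 0 counts at 0.15 µM. Against a floor of 3 counts over that group they were at least 68.0-fold, 45.9-fold and 36.8-fold higher at 0.5 µM, and with such genes at these bounds the median log2 fold change of the 141 was 2.67 as before. At these bounds they did not rank above ENSG00000282418, named after its value was seen, which went from 4 to 456 counts (log2 fold change 6.83). ENSG00000258435 lies antisense to ANAPC5, a subunit of the anaphase-promoting complex, and had 0.113, 0 and 0.128 CPM at 0.25 µM and 3.33, 2.03 and 1.96 CPM at 0.5 µM. ANAPC5 was not called between 0.15 and 0.5 µM (274 ± 17.0 and 257 ± 21.6 CPM, log2 fold change -0.06, SE 0.15), and 45.1% of the exon bases of ENSG00000258435 lie under exons of the opposite strand. ENSG00000214719 is uncertain because 74.9% of one of its transcripts has near-identical copies in 3 other genes.

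At the other end were genes that were near their final level at 0.15 µM. ENSG00000270504, antisense to PXDC1, had 2.02, 2.00 and 1.15 CPM at 0.15 µM and 0.631, 0.874 and 1.53 CPM at 0.5 µM, with overlapping libraries and a log2 fold change of -0.75 (SE 0.36, adjusted p 0.114). ENSG00000246465, antisense to the kinase gene SBK1, had 2.65, 2.33 and 2.34 CPM at 0.15 µM, 3.45, 2.29 and 2.92 CPM at 0.25 µM, 2.02, 1.39 and 1.83 CPM at 0.5 µM and 1.63, 2.95 and 1.86 CPM at 1 µM. Its libraries at 0.5 µM were all below those at 0.15 µM, but the change did not pass (-0.45, SE 0.28, adjusted p 0.232, edgeR, Benjamini-Hochberg adjusted). SBK1 rose over the same span from 14.0 ± 1.64 to 37.4 ± 4.23 CPM (SD, n = 3). LINC02473 (-0.43, SE 0.37) and LINC02321 (-0.11, SE 0.46) also gave no call in that test, and the sign for LINC02321 turned without replicate 1 (0.07) or 3 (0.10) at 0.5 µM.

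A pair of neighbouring genes on chromosome 21, LINC00479 and LINC00112, stood out after the values had been seen because 1 library decided their mean. LINC00479 had 1.14, 2.50 and 33.1 CPM at 0.5 µM and 3.71, 2.67 and 19.1 CPM at 0.25 µM, and LINC00112 had 2.36, 2.54 and 18.3 CPM and 3.00, 1.75 and 9.18 CPM. In both genes the high value at each dose was that of the third library, 1 of those that stood apart. At 1 µM the libraries were close, at 5.25, 5.98 and 5.61 CPM and at 3.48, 4.96 and 4.08 CPM. Across all 141 genes, 83 had their highest 0.5 µM value in replicate 3, against 29 in each of the others.

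The annotation placed 14 of the genes (9.93%) divergent from a coding gene, with starts on opposite strands at most 1 kb apart, 47 (33.3%) antisense within a coding gene, 3 overlapping one on the same strand, 3 at most 10 kb downstream of one, and 74 (52.5%) between genes. Among all silent lncRNA genes these shares were 4.45% divergent, 32.6% antisense and 53.0% intergenic. From 0.15 to 0.5 µM 12 of 14 divergent genes rose (median log2 fold change 2.62), 30 of 47 antisense genes (2.21) and 58 of 74 intergenic genes (3.00), as did all 3 genes in each remaining class. For comparison, 75.2% of the whole group, 16.4% of all lncRNA genes tested and 21.5% of all genes tested rose. The high counts thus belong to the chosen group as a whole, and no test compared the classes.

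The coding partners of the divergent genes took separate courses. Of 13 partners tested, 7 were higher and 2 lower from 0.15 to 0.5 µM, where 24.5% of all coding genes tested were higher and 24.5% lower. ENSG00000232234 starts 152 bases from EEF1E1, which encodes a scaffold protein of the multi-aminoacyl-tRNA synthetase complex. It had 0.294, 0.296 and 0.372 CPM at 0.15 µM, 1.01, 1.53 and 0.674 CPM at 0.25 µM, 11.6, 8.58 and 6.17 CPM at 0.5 µM and 7.10, 7.84 and 5.47 CPM at 1 µM, while EEF1E1 was at 42.7 ± 2.91 CPM without drug, 31.3 ± 0.849 at 0.15 µM, 18.9 ± 2.39 at 0.25 µM and 9.31 ± 0.436 at 0.5 µM (SD, n = 3). The groups of both genes were ordered by dose without overlap up to 0.5 µM, in opposite directions. From 0.15 to 0.5 µM the lncRNA changed by 4.82 (SE 0.46, adjusted p 8.89e-06) and its neighbour by -1.71 (SE 0.16, adjusted p 7.18e-06) on the log2 scale in the edgeR quasi-likelihood test, Benjamini-Hochberg adjusted. GAS6-DT also rose (1.75, SE 0.36, adjusted p 0.00208) while its partner GAS6, the ligand of the TAM receptor kinases, fell by 1.06 (SE 0.18, adjusted p 0.00072) in that test. GAS6 was not silent before treatment: its level was 9.11 ± 0.746 CPM without drug, 25.1 ± 1.91 CPM at 0.15 µM and then 11.9 ± 3.00 CPM at 0.5 µM.

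Other divergent pairs went up together. ENSG00000265799 starts 656 bases from CSF3, the gene of granulocyte colony-stimulating factor. It had 0.0735, 0.074 and 0.0677 CPM at 0.15 µM, 0.075, 0.229 and 0.128 CPM at 0.25 µM and 4.17, 3.61 and 3.62 CPM at 0.5 µM, so nearly all of its increase fell in the second step (4.85, SE 0.44, adjusted p 1.63e-05, the edgeR quasi-likelihood test, Benjamini-Hochberg adjusted). CSF3 itself rose from 0.0575 ± 0.0700 to 1.36 ± 0.757 CPM (SD, n = 3) and stayed below its divergent lncRNA in CPM, a scale without gene length. SNHG18, the host of a small nucleolar RNA, had 0.478, 0.370 and 0.677 CPM at 0.15 µM, 1.50, 1.14 and 1.73 CPM at 0.25 µM and 3.58, 2.82 and 2.79 CPM at 0.5 µM. Its partner SEMA5A, a semaphorin gene with 0 untreated counts, rose from 0.0985 ± 0.0931 to 1.53 ± 0.549 CPM. TWSG1-DT rose by 3.02 (SE 0.49, adjusted p 0.000448) and TWSG1, which encodes a binding protein of bone morphogenetic proteins, by 0.61 (SE 0.18, adjusted p 0.0164) by edgeR, adjusted likewise.

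In the remaining named pairs 1 side was not called or not tested. ENSG00000277287, divergent from the transporter gene SLC4A11, had 2.38 ± 0.433 and 4.11 ± 0.412 CPM (SD, n = 3) at 0.5 and 1 µM and gave no call from 0.15 to 0.5 µM (0.73, SE 0.30, adjusted p 0.0733), while SLC4A11 rose (0.89, SE 0.21, adjusted p 0.00468, edgeR, Benjamini-Hochberg adjusted). ENSG00000267666 rose (3.10, SE 0.60, adjusted p 0.00142) beside the ubiquitin ligase gene RNF126, which was not called (-0.38, SE 0.20, adjusted p 0.155). ENSG00000285091 rose (2.91, SE 0.54, adjusted p 0.00114, same test), and its partner NELFCD, a subunit of the negative elongation factor, could not be tested. Exons of the opposite strand cover 97.4% of the exon bases of NELFCD, and its summed count over the 15 libraries was at most 35.

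Most hosts of antisense genes that could be tested rose as well. Of the 46 host genes 41 were tested, and from 0.15 to 0.5 µM 26 were higher and 3 lower, with a median log2 fold change of 1.15 (all coding genes 24.5% and 24.5%). For 17 antisense genes that rose the host rose too, and for 3 the host fell. The counting took no notice of strand as far as the counts show, so fragments of unspliced host RNA within the exons of an antisense gene cannot be told apart from that gene, and 28 of the 47 antisense genes lay in a host of at least 10 CPM at 1 µM. PAPLN-AS1 rose over the whole span (1.53, SE 0.34, adjusted p 0.00364, edgeR, Benjamini-Hochberg adjusted) from 2.68, 1.93 and 1.62 CPM to 7.37, 5.36 and 4.41 CPM. Its host PAPLN had 16.3 ± 1.10 and 29.7 ± 21.4 CPM (SD, n = 3) at these doses and was not called (0.83, SE 0.33, adjusted p 0.0633).

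The nearest coding genes of intergenic genes were called higher about as often as coding genes in general. Of 66 such neighbours 57 were tested, 14 (24.6%) were higher and 20 (35.1%) lower from 0.15 to 0.5 µM (all coding genes 24.5% and 24.5%), and the median log2 fold change was 0.24. The 141 lncRNA genes had 130 distinct nearest coding genes, of which 114 were tested and 49 (43.0%) were higher and 25 (21.9%) lower. Of the 106 lncRNA genes that rose, the nearest coding gene rose in 41 cases, was not called in 32, fell in 20 and was not tested in 13. The nearest coding gene with the largest gain in CPM was ARRDC4, an arrestin-domain gene, at 58.5 ± 12.8 and 803 ± 178 CPM (SD, n = 3) at 0.15 and 0.5 µM, which is nearest to both LINC01582 (108160 bases away) and LINC02251 (29205 bases away), which were chosen for mention after their values had been seen. LINC01582 had 0.331, 0.407 and 0.203 CPM at 0.15 µM and 4.50, 3.02 and 3.88 CPM at 0.5 µM.

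**Figure D3:**
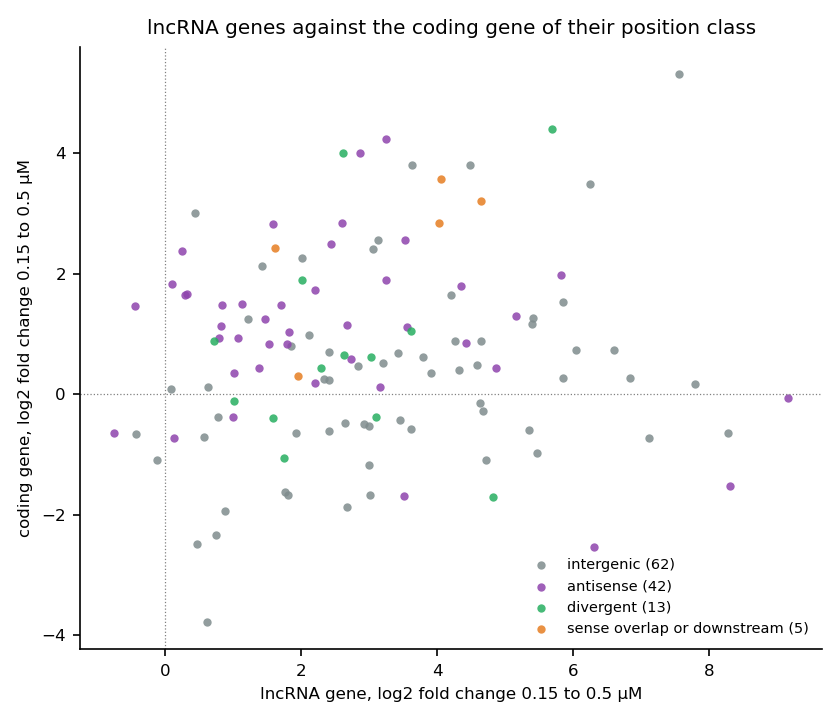
Log2 fold change from 0.15 to 0.5 µM of the lncRNA gene (horizontal axis) against that of its coding partner or nearest coding gene (vertical axis) for 122 lncRNA genes whose coding gene was tested, coloured by position class. Most points lie right of 0, and the hosts of antisense genes have a median of 1.15 where neighbours of intergenic genes have 0.24.

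Against untreated cells, a contrast that shares the libraries used by the rule, 115 of the nearest coding genes were tested in the fit of all 15 libraries. At 0.15 µM 66 were higher and 25 lower (all genes 31.9% and 19.4%), and at 1 µM 69 were higher and 29 lower (all genes 38.8% and 27.5%). Among the 129 nearest coding genes in the count table, 35 had at most 3 untreated counts (27.1%, against 26.6% of all coding genes) and 12 (9.30%) belonged to the 632 coding genes chosen by the same thresholds, a class that made up 3.17% of all coding genes.

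The start windows held more G and C than those of other silent lncRNA genes. The median was 54.7% G and C, against 47.0% for all silent lncRNA genes, 60.3% for all coding genes and 63.0% for the coding genes chosen by the same thresholds. Windows with over 55% G and C and a CG count of more than 0.65 of that expected from base composition, called CpG-rich here, were found at 43 of the 141 (30.5%), against 10.7% of silent lncRNA genes, 16.3% of all lncRNA genes, 47.9% of coding genes and 41.5% of the coding genes chosen by the same thresholds. The GC box GGGCGG or its complement CCGCCC was present in 36.9% of the windows (15.8% of silent lncRNA, 21.2% of all lncRNA and 52.5% of coding windows), and CCAAT on either strand in 35.5% (36.4%, 35.2% and 36.0%). Of the CpG-rich windows 10 belonged to divergent, 19 to antisense and 13 to intergenic genes.

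The second type, the CCAAT-repeating window, was found at 15 of the 141 genes, ENSG00000286176, ENSG00000287349, ENSG00000284837, ENSG00000257883, ENSG00000287426, ENSG00000263567, ENSG00000287396, ENSG00000282265, ENSG00000226919, ENSG00000287538, LINC02096, LINC01582, LINC01947, CCDC13-AS2 and TM4SF18-AS1, whose windows were linked by matches of 80.3% to 93.3% identity over at least 150 bases. At least 3 copies of CCAAT on the strand of the gene were present in 14 of them (93.3%), with a median of 5, and in 1 of the other 126 windows (0.794%), in 0.855% of silent lncRNA windows, in 0.954% of all lncRNA windows and in 1.23% of coding windows. None of the 15 was divergent from a coding gene, 10 lay between genes and 4 were antisense. Matches of letters are a description and do not show that a factor binds there.

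The genes with this window reached most of their level between 0.25 and 0.5 µM. At 0.15 µM their mean level was a median of 4.19% of that at 0.5 µM and at most 14.4%, whereas the median was 22.1% in the 43 genes with a CpG-rich window and 15.8% in the other 83. From 0.15 to 0.25 µM 5 of the 15 rose, from 0.25 to 0.5 µM 14 rose, and over the whole span all 15 rose, with median log2 fold changes of 1.73, 2.92 and 4.59. Among the 126 other lncRNA genes of the group 28, 49 and 91 rose, with medians of 1.26, 1.00 and 2.41. Of all lncRNA genes tested 2.24%, 5.86% and 16.4% rose. ENSG00000287349 had 0.588, 0.074 and 0.508 CPM at 0.15 µM, 1.58, 1.26 and 0.931 CPM at 0.25 µM, 9.13, 9.89 and 8.93 CPM at 0.5 µM and 10.1, 11.7 and 9.04 CPM at 1 µM. Its second step was 3.05 on the log2 scale (SE 0.45, adjusted p 0.000425, the edgeR quasi-likelihood test, Benjamini-Hochberg adjusted), and its neighbour TRAPPC11, of the TRAPP vesicle-tethering complex, was not called over the whole span (0.48, SE 0.18, adjusted p 0.0551). CCDC13-AS2 had 0, 0.148 and 0.0677 CPM at 0.15 µM, 0.225, 0.229 and 0.0321 CPM at 0.25 µM and 2.74, 2.78 and 2.39 CPM at 0.5 µM. ENSG00000284837 had 0.331, 0.555 and 0.609 CPM at 0.15 µM, 1.09, 1.56 and 0.899 CPM at 0.25 µM and 4.42, 6.31 and 5.61 CPM at 0.5 µM.

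**Figure D4:**
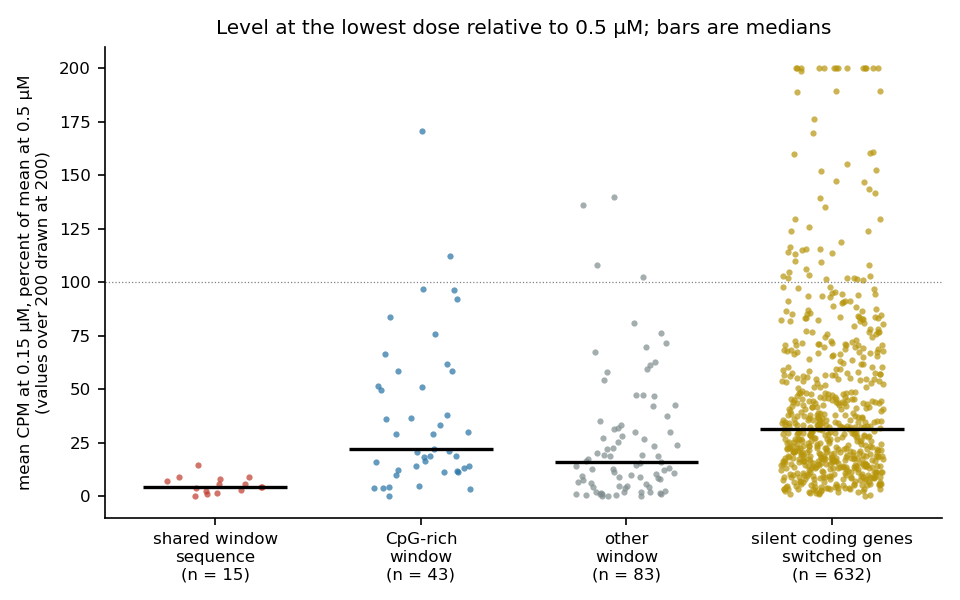
Mean level at 0.15 µM as a percentage of the mean level at 0.5 µM (vertical axis) for lncRNA genes with a CCAAT-repeating window (15 genes), a CpG-rich window (43) or another window (83) and for the 632 coding genes chosen by the same thresholds, with 1 point per gene and bars for medians. The medians are 4.19%, 22.1%, 15.8% and 31.6% from left to right.

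By contrast, ENSG00000226954, whose CpG-rich window is printed above, climbed evenly, with 1.51, 1.00 and 1.29 CPM at 0.15 µM, 3.11, 2.67 and 2.70 CPM at 0.25 µM, 3.75, 4.17 and 5.14 CPM at 0.5 µM and 3.91, 5.63 and 3.82 CPM at 1 µM. It rose by 1.03 (SE 0.27, adjusted p 0.0433) and then by 0.77 (SE 0.26, adjusted p 0.0458) on the log2 scale in the edgeR quasi-likelihood test, Benjamini-Hochberg adjusted, and its 3 lower doses did not overlap. Of the 43 genes with a CpG-rich window 12 rose from 0.25 to 0.5 µM and 28 over the whole span. In the 83 genes with another window the counts were 37 and 63. Among all lncRNA genes tested 5.86% and 16.4% rose, and among all genes tested 12.2% and 21.5%.

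The rule kept only genes with at most 3 untreated counts, and the same window occurred outside it. A window similar to at least 2 of the 15 stood at 99 genes of the genome, 79 lncRNA and 20 coding genes. Of the 64 lncRNA genes among them that were not in the group, 35 had at most 3 untreated counts and were outside it because they were under 1 CPM at 1 µM, and no count of calls is given for these. Of the other 29, found by likeness to windows of genes that had been chosen on level, 25 passed the filter on low counts. From 0.15 to 0.5 µM 16 of these rose and none fell in edgeR's test (all lncRNA genes tested 16.4% and 15.0%). Their median log2 fold change was 2.36, with 1 lower at an unadjusted p under 0.05 and 0 lower by DESeq2. To leave out genes that could pass the filter only through their level at 0.5 µM, those with at least 10 counts in each library at 0.15 µM were also counted, a choice made after seeing the data: 12 of 17 rose and none fell (all such lncRNA genes 12.9% and 22.1%). ENSG00000287064, with 14 untreated counts, had the highest level, 0.147 CPM without drug, then 10.5, 68.1, 593 and 604 CPM from the lowest to the highest dose, and a log2 fold change from 0.15 to 0.5 µM of 5.89 (SE 0.36, adjusted p 4.6e-07, the edgeR quasi-likelihood test, Benjamini-Hochberg adjusted). Among the 16 coding genes tested, 7 were higher and 3 lower with a median of 0.19 (all coding genes tested 24.5% higher and 24.5% lower). Unlike the lncRNA count, this one includes genes with at most 3 untreated counts, which could hardly be called lower. Of the 7, these were IRGM and CHRNA7 with 2 such counts and PGPEP1L and C13orf42 with 0. IRGM, CHRNA7 and PGPEP1L also belong to the 632 coding genes chosen by the same thresholds. IRGM is an immunity-related GTPase gene known to be transcribed from a retroviral long terminal repeat. It was at 0.145, 1.01 and 11.8 CPM at the 3 lower doses (log2 fold change 6.34, SE 0.42).

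**Figure D5:**
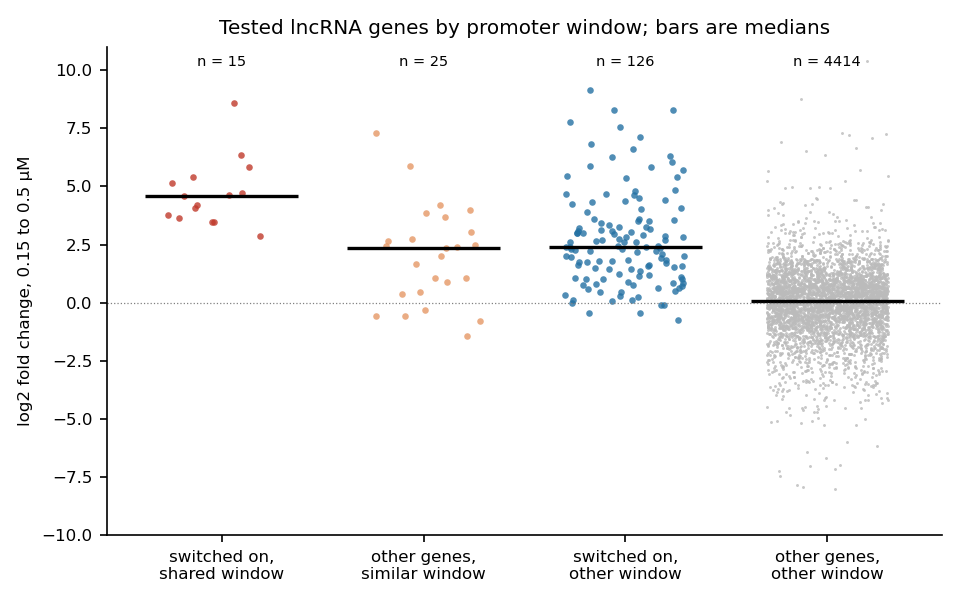
Log2 fold change from 0.15 to 0.5 µM (vertical axis) of the lncRNA genes tested, with 1 point per gene and bars for medians, for the 15 genes with a CCAAT-repeating window, 25 lncRNA genes with a similar window and more than 3 untreated counts, the other 126 genes of the group and the remaining lncRNA genes (the 11 tested with a similar window and at most 3 untreated counts are not drawn). The medians of the first 3 are 4.59, 2.36 and 2.41.

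Some values are uncertain for reasons of counting. Near-identical copies (at least 98% over at least 200 bases) in other genes covered at least 50% of a transcript in 4 of the 141, FAM182B, LINC01297, ENSG00000214719 and ENSG00000256209, and 31.1% in LINC00957. Exons of the opposite strand covered some exon bases of 41 genes and at least 50% in 2. Over all genes, values of 2 (50354) outnumbered values of 1 (30239), so both mates of a read pair were evidently counted, and counting intervals and floors, which cover counting error only, are too narrow by that.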

How the data were processed

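Poly(A) RNA of K562 cells was sequenced in 15 libraries, and groups and replicate numbers were taken from GEO's labels, which call the replicates biological. Per the labels, libraries were made with a directional kit, and the submitters' processing notes name Trim Galore 0.6.10, HISAT2 2.2.1, SAMtools 1.21, featureCounts 1.5.3 and build hg38. The authors deposited raw counts per GENCODE 38 gene, not normalised, and these counts were used. The deposited FPKM files were not used here. How featureCounts treated strand was not given in the sources used here. Opposite-strand exons cover at least 95% of the exon bases of 17 coding genes, and 14 of these had 0 counts, so fragments in stretches shared between strands evidently went to neither gene.

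Gene types and positions came from GENCODE 44 on hg38, which held 99.8% of the identifiers, and 44 duplicate entries of the Y chromosome were left out. CPM were computed on library totals of 23755510 to 32805574 counts. The members and all lists were chosen with earlier results of these data known. The 9 libraries at 0.15, 0.25 and 0.5 µM were fitted with edgeR 4.0.16 in R 4.3.3 (filterByExpr, TMM scaling, quasi-likelihood test, Benjamini-Hochberg adjustment, calls at an adjusted p under 0.05), with 6 residual degrees of freedom. This fit was chosen because the rule had not used those libraries, and a fit of all 15 was an alternative. On simulated counts of 0.15 against 0.5 µM (21824 genes) 48.0% of 2-fold and 96.9% of 4-fold changes were called and 0.0324% of unchanged genes. The simulation used a single dispersion below the fitted common value of 0.0693 and drew changed genes from all levels. These shares therefore do not carry over to the lncRNA genes, which were low at 0.15 µM. Other alternatives were library totals, RLE, TMM from genes of at least 10 CPM, other count filters, DESeq2 1.42.0, a replicate block, single libraries left out and other thresholds for membership.

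No replicates agreed within sampling noise. Same-numbered libraries deviated together between 0.25 and 0.5 µM (correlations of 0.466, 0.501 and 0.758), and not between other doses (-0.224 to 0.0488). The labels do not say that they were paired, and replicates 1 and 2 also correlated across numbers there (0.207 and 0.43).

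Genes were named by a rule: the 10 highest at 1 µM, the 4 highest and 4 lowest log2 fold changes from 0.15 to 0.5 µM, the 8 divergent and 4 antisense genes highest at 1 µM, those at the thresholds, their nearest coding genes and described lncRNAs. Start windows were compared with BLAST 2.17.0, and similar ones match at 80% or more over at least 150 bases. For the CCAAT-repeating windows and those similar to them, only matches on the strand of the gene were kept. The sequences of the CCAAT-repeating windows are not reported here.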

Additional observations from a re-analysis of the deposited data

How the results depend on the processing

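The counts of genes that rose from 0.15 to 0.25 µM, from 0.25 to 0.5 µM and from 0.15 to 0.5 µM were 33, 63 and 106, and with single libraries left out they ran from 6 to 39, from 48 to 62 and from 93 to 108. The first count thus rests on single libraries, and a lone pair of libraries in a group is assumed to vary like the others. A filter at a mean level of 1 CPM, which left 82 of the 141, gave 38 and 60 in the second and the third comparison. Other scalings, no filter, DESeq2, all 15 libraries and only the doses compared moved no count by more than 1.5 times. With the replicate block the counts were 31, 65 and 106, with 29, 61 and 104 genes called in both fits. Leaving out replicate 3 at 0.25 and at 0.5 µM, an alternative chosen after seeing the data, gave 47, 63 and 102. Nearest coding genes higher from 0.15 to 0.5 µM numbered 49, and 45 to 50 with single libraries left out.

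The number of genes in the group followed its thresholds: 253 with at most 10 untreated counts, 337 with at least 0.5 CPM at 1 µM and 61 with at least 2 CPM, where 141 met the rule (136 to 185 with single libraries left out). Among 45 named genes, 825 of 848 alternative values kept their direction and side of the threshold, 11 gained a call and 8 lost one. The log2 fold change of LINC02321 was -0.11, ran from -0.73 to 0.10 with single libraries left out and was 0.080 without replicate 3 at both doses, and that of ANAPC5 turned from -0.06 to 0.042 with TMM from genes of at least 10 CPM; the cause was not tested. Depth limits genes near 1 CPM, about 28 counts per library, where changes can be missed, and how large a change could be missed there was not tested.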
